A study of Mus musculus with 7 samples.

Results

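Transcripts of 10 genes that set the tone of blood vessels were compared between the lungs of claudin-18 knockout and wild-type mice. The genes were chosen by name: Nos3, Gucy1b1, Gucy1a1, Edn1, Ednra, Ednrb, Ece1, Ace, Agtr1a and Ptgis, with Gucy1b3 and Gucy1a3 accepted as older symbols. Of the 10 genes, 9 had a probe on the array, and Ednra had none under that name. The 9 genes had 17 of the 25697 probes of the array. A filter on detection kept 16 of these 17, and 11902 of all probes, for testing. The probe left out, ILMN_2717765 of Ednrb, was detected on 0 of 3 knockout and 1 of 4 wild-type arrays.

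RNA of whole lungs from male mice aged 3 to 4 months was hybridised to Illumina MouseRef-8 v2 bead arrays, with 3 knockout and 4 wild-type arrays on 1 slide. In the lung, claudin-18 seals the tight junctions between alveolar epithelial cells. The knockout removes exons 2 and 3 of Cldn18 in all tissues, because a floxed allele was recombined by the CMV-cre deleter, and so it is not confined to the lung epithelium. Both genotypes were untreated, and their shared genetic background combined 129S6/SvEvTac with C57BL/6J and with Balb/c. The labels name 4 replicates for each genotype; a knockout array of that number was not analysed here. Whether every array comes from its own animal is not stated, and the p-values therefore rest on the spread among these samples, which may be technical.

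Vessel tone is set by signals that relax or contract vascular smooth muscle. Endothelial nitric oxide synthase (Nos3) makes nitric oxide, which diffuses into muscle and pericytes and binds soluble guanylate cyclase, a dimer of the alpha subunit Gucy1a1 and the beta subunit Gucy1b1; the cyclic GMP it makes relaxes the muscle. Endothelin-1 (Edn1) is a peptide that is cut to its active form by endothelin-converting enzyme (Ece1); it contracts muscle through the receptor Ednra, while the receptor Ednrb on endothelium clears the peptide and prompts relaxing signals. Angiotensin-converting enzyme (Ace), abundant on the endothelium of the lung, makes angiotensin II, which contracts muscle through the receptor Agtr1a. Prostacyclin synthase (Ptgis) makes the relaxing lipid prostacyclin.

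The 250 bases before the start of 5 of the genes are shown, because 4 of them had every tested probe lower in the knockout and the fifth, Edn1, had higher levels there. The sequences are from RefSeq (GRCm38.p6), run 5′ to 3′ on the strand of the gene, and have capitals at the motifs that were searched.
Gucy1b1 (chr3:82074712-82074961, minus strand): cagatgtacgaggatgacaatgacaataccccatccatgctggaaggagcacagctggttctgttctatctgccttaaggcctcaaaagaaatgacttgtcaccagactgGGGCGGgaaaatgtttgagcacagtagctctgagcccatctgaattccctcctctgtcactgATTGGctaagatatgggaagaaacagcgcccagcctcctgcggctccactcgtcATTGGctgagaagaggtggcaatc
Gucy1a1 (chr3:82145651-82145900, minus strand): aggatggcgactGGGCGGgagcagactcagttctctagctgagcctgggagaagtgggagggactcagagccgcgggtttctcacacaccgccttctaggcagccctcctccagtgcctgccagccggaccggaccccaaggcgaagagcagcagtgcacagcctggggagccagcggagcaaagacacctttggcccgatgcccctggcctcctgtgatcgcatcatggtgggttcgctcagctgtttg
Edn1 (chr13:42301226-42301475, plus strand): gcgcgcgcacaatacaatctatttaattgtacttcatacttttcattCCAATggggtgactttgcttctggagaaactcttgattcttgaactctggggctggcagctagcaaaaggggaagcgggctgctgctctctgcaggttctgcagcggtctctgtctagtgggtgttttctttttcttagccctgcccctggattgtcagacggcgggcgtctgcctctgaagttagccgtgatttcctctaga
Ednrb (chr14:103843702-103843951, minus strand): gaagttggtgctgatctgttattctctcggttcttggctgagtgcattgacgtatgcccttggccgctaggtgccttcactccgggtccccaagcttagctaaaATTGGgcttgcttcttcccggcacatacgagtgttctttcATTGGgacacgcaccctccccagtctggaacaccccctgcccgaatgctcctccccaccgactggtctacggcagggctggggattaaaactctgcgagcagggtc
Ece1 (chr4:137861987-137862236, plus strand): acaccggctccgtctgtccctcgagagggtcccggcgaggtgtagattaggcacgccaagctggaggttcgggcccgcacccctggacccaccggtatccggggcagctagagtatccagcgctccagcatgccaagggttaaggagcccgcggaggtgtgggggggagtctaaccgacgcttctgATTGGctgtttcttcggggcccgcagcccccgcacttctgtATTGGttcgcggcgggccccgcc

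RefSeq start windows (250 bases before and 50 after the start) were found for 7 of the 10 genes, 12 windows in all. Searched on both strands were the TATA box (TATAAA), the CCAAT box (CCAAT), the GC box (GGGCGG), the GATA site (AGATAA), an AP-1 site (TGANTCA) and the core of the hypoxia response element (ACGTG); none of these motifs lies inside another. The CCAAT box occurred in 37.4% and the GC box in 35.7% of all 32851 windows, the TATA box in 13.6%, the ACGTG core in 19.6%, the GATA site in 11.2% and the AP-1 site in 7.81%. Before the start of Gucy1b1, CCAAT boxes on the reverse strand lay at 78 and 24 bases and a GC box at 140 bases. Gucy1a1, the neighbour of Gucy1b1 on chromosome 3 with 0 protein-coding genes between them in RefSeq, had a GC box at 238 bases and no CCAAT box in the window shown. Ednrb had reverse CCAAT boxes at 146 and 106 bases, and Edn1 had a forward one at 203 bases. In the 50 bases after its start, Edn1 also had a reverse GATA site and a reverse ACGTG core. Ece1 had reverse CCAAT boxes at 64 and 23 bases. A reverse GC box of Ece1 began at 5 bases and crossed the start, so it is not whole in the bases shown and has no capitals. Another reverse GC box of Ece1 lay after the start. RefSeq gave Ece1 4 start windows, of which the first is shown, and windows 3 and 4 held no CCAAT box. Window 3 held the ACGTG core on both strands, and window 4 held a GC box. The other Gucy1a1 window, which is not shown, held an ACGTG core after the start. The windows of Ace also held matches, which are not listed. How many of all windows hold a pair of reverse CCAAT boxes was not counted. The boxes are therefore not set against the direction of change. These matches describe letters in a window and not binding.

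The arrays differed in brightness before normalisation. The median signal of all probes was 308.2 ± 45.6 (SD, n = 3) on knockout and 410.5 ± 58.6 (SD, n = 4) on wild-type arrays (exact permutation test, two-sided, p = 0.0857), and between 10291 and 12376 probes were detected per array. Signals below are the deposited mean bead intensities with no normalisation; levels are log2 values after background correction and quantile normalisation, and change means knockout minus wild type in level. Only levels of the same probe are comparable. Cldn18 itself had signals of 1875, 1030 and 935 in the knockout and of 14718 to 27990 in the wild type, a change of -3.71 (SE 0.19, limma adjusted p = 4.2e-05); where its probe lies relative to the deleted exons is not known here. The surfactant genes Sftpc, Sftpb and Sftpd, which mark lung epithelium, were detected on all 7 arrays.

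Of the 16 tested probes, 10 were lower in the knockout past an adjusted p of 0.05 in limma, 0 were higher and 6 did not pass; at an unadjusted p under 0.05, 14 were lower and 1 was higher. These 10 are 62.5% of the tested probes of the 9 genes, beside 8.87% of all tested probes called in either direction, 4.91% called lower and 3.97% called higher. Several probes share a gene and are not independent: 6 genes had a lower probe, and in 4 of them (Gucy1b1, Gucy1a1, Ednrb and Ece1) every tested probe was lower. Knockout levels lay below every wild-type level for 13 probes (81.2%, beside 12.4% of all tested probes) and above every one for 1, that of Edn1 (13.3% of all tested probes lay above). By the brightest probe of each gene, 5 of 9 genes were lower (55.6%, beside 5.11% of all tested genes called lower and 8.79% in either direction) and 0 higher, with a median change of -1.05 against 0.01 over all tested genes. The count of 10 lower probes was 6 without knockout 1, 3 without knockout 2, 5 without knockout 3 and 7 or 8 without any wild-type array, and it was 5 with the authors' processed values.

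**Figure D1:**
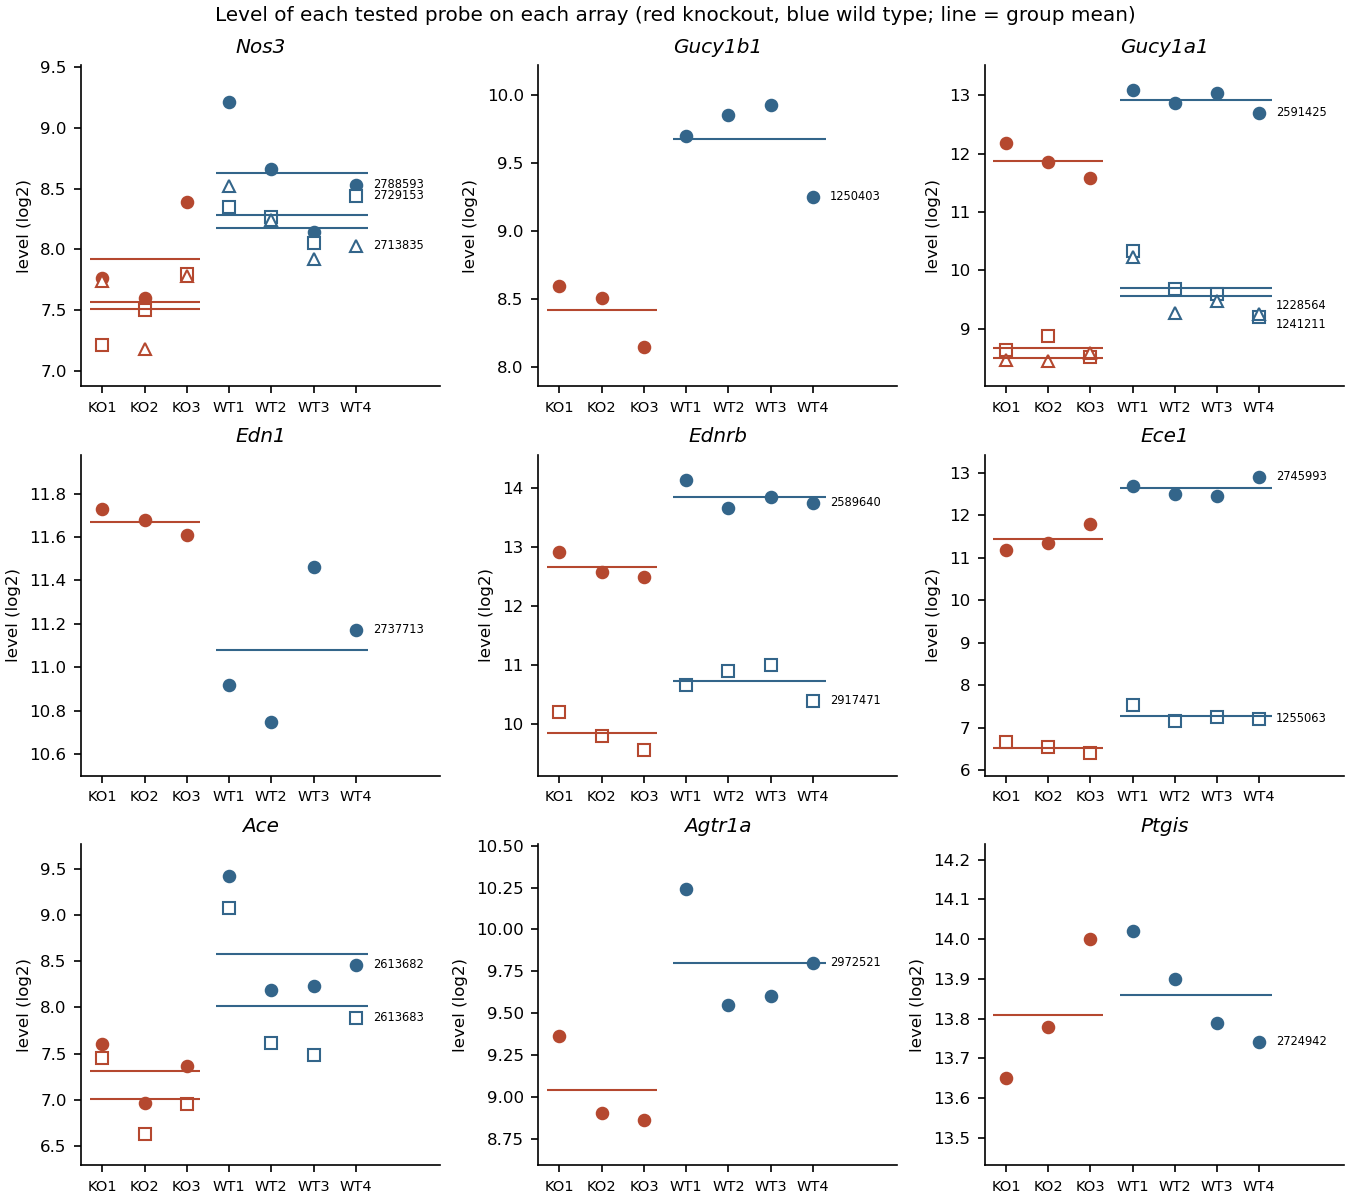
Normalised log2 level (vertical axis) of each tested probe of the 9 genes on each array (horizontal axis, KO for knockout in red, WT for wild type in blue), 1 panel per gene, with 1 symbol per probe labelled by its number and a line at the mean of each genotype. Knockout points lie below the wild-type points in most panels, above them for Edn1, and among them for Ptgis; panels have their own scale, and different probes are not comparable in height.

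Transcripts of both subunits of soluble guanylate cyclase fell in the knockout. The beta subunit Gucy1b1, which carries the haem that binds nitric oxide, had signals of 692, 424 and 420 in the knockout and 1502, 1142, 1484 and 1059 in the wild type. Its levels were 8.60, 8.51 and 8.15 against 9.70, 9.85, 9.93 and 9.25, so that every knockout array lay at least 0.65 below every wild-type array. The change was -1.26 (SE 0.21, adjusted p = 0.00773), a 2.40-fold difference. It kept its call under all 15 alternatives tried, with adjusted p from 0.00112 to 0.0348, but its size was -0.81 with no background correction and -0.68 with the authors' processed values.

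The alpha subunit Gucy1a1 was read by 3 probes. The brightest, ILMN_2591425, had signals of 5622, 2511 and 2022 in the knockout and 11170, 7233, 10664 and 7937 in the wild type. Its levels were 12.18, 11.86 and 11.58 against 13.08, 12.87, 13.04 and 12.70, with no overlap. It fell by 1.05 on the log2 scale in the knockout (SE 0.19, adjusted p = 0.0107), and without knockout 2 the adjusted p was 0.0525. The other two probes gave changes of -1.04 (SE 0.25, adjusted p = 0.0325) for ILMN_1241211 and -1.06 (SE 0.24, adjusted p = 0.0273) for ILMN_1228564. Their calls rest on the full set of arrays: without 1 array the first had an adjusted p of 0.0832 (knockout 1), 0.079 (knockout 2), 0.11 (knockout 3), 0.065 (wild type 2) or 0.0569 (wild type 3). The second had 0.0721 (knockout 1), 0.102 (knockout 2), 0.0711 (knockout 3) or 0.0515 (wild type 3), and with the authors' processed values they had 0.0514 and 0.0518. Their sizes were smaller with no background correction (-0.69 and -0.68) and with the authors' values (-0.59 and -0.57, against -1.03 for the brightest probe).

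The balance between the subunits was compared within arrays, as the level of Gucy1a1 minus that of Gucy1b1. The difference was 3.58, 3.35 and 3.43 in the knockout and 3.38, 3.02, 3.11 and 3.46 in the wild type, and the genotypes overlapped. Only its shift between genotypes can be read, since the height also depends on the probes. The shift was 0.21, and it did not pass the exact permutation test (two-sided, p = 0.257, adjusted over the 2 pairs tested 0.257). It turned to -0.19 with no background correction and to -0.36 with the authors' processed values.

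Nos3, which makes the nitric oxide that the cyclase senses, had 3 dim probes that all gave negative changes, with 1 past the threshold. That probe, ILMN_2729153, had signals of 419, 316 and 388 in the knockout and 817, 568, 592 and 764 in the wild type. Its levels were 7.22, 7.50 and 7.80 against 8.35, 8.27, 8.05 and 8.44, with no overlap, and it fell by 0.77 on the log2 scale (SE 0.18, adjusted p = 0.0324), a 1.70-fold difference. The call was lost without knockout 1 (adjusted p = 0.11), knockout 2 (0.121), wild type 1 (0.0543), wild type 2 (0.0663) or wild type 4 (0.0704), and also with no background correction (change -0.34, 0.0596), with no filter (0.0553) and with the authors' processed values (change -0.25, 0.0756). The brightest probe, ILMN_2788593, had levels of 7.77, 7.60 and 8.39 in the knockout and 9.21, 8.66, 8.14 and 8.53 in the wild type, with knockout 3 above wild type 3. Its change was -0.71 (SE 0.27, 95% interval -1.33 to -0.10, adjusted p = 0.139). The third probe, ILMN_2713835, had a change of -0.61 (SE 0.21, adjusted p = 0.109) with no overlap. With the authors' processed values the changes of these probes were -0.29 and -0.20. The Nos3 call is thus carried by 1 of its 3 probes.

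**Figure D2:**
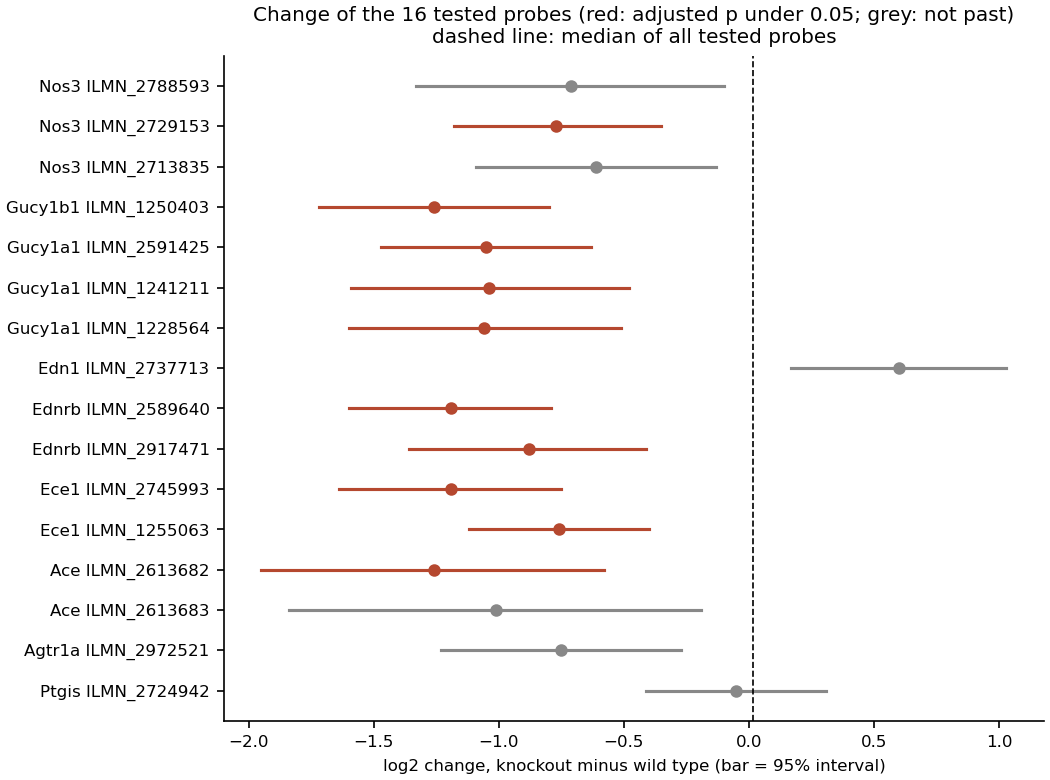
Log2 change, knockout minus wild type, with its 95% interval (horizontal axis) for the 16 tested probes of the 9 genes (vertical axis), with probes past an adjusted p of 0.05 marked apart from the others. Gucy1b1, Gucy1a1, Ednrb and Ece1 have every probe called lower, Edn1 has the only change above 0 at 0.60, and Ptgis lies at -0.05.

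Within the endothelin genes, the receptor Ednrb and the converting enzyme Ece1 were lower in the knockout, while the ligand Edn1 had its higher levels there without passing the test. Ednrb was bright on the array: ILMN_2589640 had signals of 9444, 4103 and 3698 in the knockout and 21492, 12349, 18674 and 16120 in the wild type. Its levels were 12.92, 12.58 and 12.49 against 14.14, 13.67, 13.86 and 13.75, a gap of 0.74 between the closest arrays of the genotypes. The change was -1.19 (SE 0.18, adjusted p = 0.00602), a 2.28-fold difference, and it kept its call under all 15 alternatives (0.000252 to 0.0364). The second Ednrb probe, ILMN_2917471, had levels of 10.21, 9.80 and 9.56 against 10.66, 10.90, 11.00 and 10.39, with no overlap. Its change of -0.88 (SE 0.21, adjusted p = 0.0326) was less steady: leaving out 1 array gave an adjusted p of 0.126 (knockout 2), 0.12 (knockout 3), 0.0521 (wild type 1), 0.0752 (wild type 2) or 0.0746 (wild type 3), and testing with no filter gave 0.0581. Nothing can be said here of Ednra, the contracting receptor, for want of a named probe.

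Ece1, the protease that releases active endothelin, was read mainly by ILMN_2745993. Its signals were 2916, 1806 and 2327 in the knockout and 8749, 5726, 7174 and 9157 in the wild type. The levels of 11.18, 11.35 and 11.80 stood apart from 12.69, 12.51, 12.45 and 12.90 by at least 0.65. The change was -1.19 (SE 0.20, adjusted p = 0.00779), a 2.29-fold difference, and leaving out any 1 array kept the call. The dimmer probe, ILMN_1255063, was detected on 0 of 3 knockout and 4 of 4 wild-type arrays. Its knockout level is therefore only a bound, and it was at least 1.16-fold lower (mean levels 6.53 and 7.29, adjusted p = 0.0212). Such a bound sets an array without detection to the level of its dimmest detected probe. The call of this probe was lost without knockout 2 (0.0844), without knockout 3 (0.0773), with no background correction (change -0.23, 0.144), with robust fitting to a variance trend (0.0755) and with the authors' processed values (change -0.16, 0.184).

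Edn1, a strong vasoconstrictor made mostly by endothelium, had its higher levels on the knockout arrays, unlike its enzyme. Its raw signals overlapped, at 4192, 2239 and 2069 in the knockout and 2976, 1875, 3782 and 3034 in the wild type. After normalisation its levels were 11.73, 11.68 and 11.61 against 10.92, 10.75, 11.46 and 11.17, with all knockout arrays above all wild-type arrays by 0.15 or more. The change was 0.60 (SE 0.19, 95% interval 0.17 to 1.03, adjusted p = 0.0852) and did not pass. Since the signals alone averaged 2833 in the knockout and 2917 in the wild type, the direction rests on scaling the arrays to each other; with median scaling the change was 0.45. The threshold was passed with no background correction (0.54, adjusted p = 0.0393), with the authors' processed values (0.53, 0.0464) and with robust fitting to a variance trend (0.60, 0.0399), and adjusted p over all alternatives ran from 0.0393 to 0.32.

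Ligand and enzyme were then compared within arrays, where a scaling shared by both probes largely cancels. Edn1 minus Ece1 was 0.56, 0.33 and -0.19 in the knockout and -1.76, -1.77, -0.99 and -1.73 in the wild type. The knockout mean was 0.23 ± 0.38 (SD, n = 3) and the wild-type mean -1.56 ± 0.38 (SD, n = 4), a shift of 1.79 or 3.46-fold. The genotypes did not overlap, and the exact permutation p was 0.0286 (two-sided), the smallest that 35 splits of 7 arrays can give. Adjusted over the 2 pairs tested it was 0.0572. Edn1 levels lay wholly above and Ece1 levels wholly below in the knockout, so their difference had to separate the genotypes. The p-value is therefore no evidence beyond the levels of each gene. The shift stayed between 1.62 and 2.00 when any 1 array was left out. A planned comparison of Ednra with Ednrb was not possible without a probe for Ednra.

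**Figure D3:**
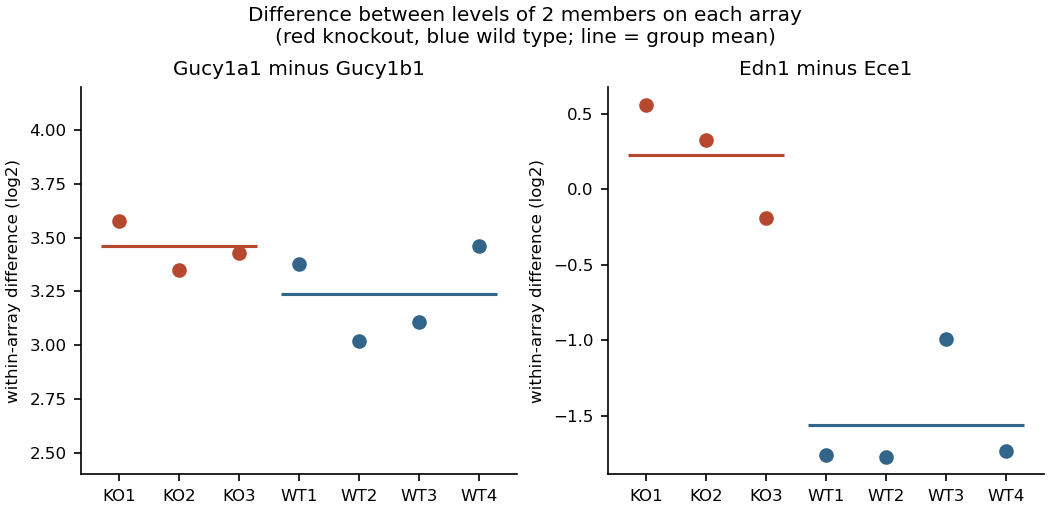
Difference in normalised log2 level between the brightest probes of 2 genes (vertical axis) on each array (points, knockout in red, wild type in blue; line, group mean), for Gucy1a1 minus Gucy1b1 and for Edn1 minus Ece1. The knockout and wild-type points overlap for the cyclase subunits and are separate for Edn1 minus Ece1, where wild type 3 at -0.99 is the wild-type array nearest to the knockout.

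The angiotensin genes had negative changes in the knockout, and 1 probe of Ace passed the test. Ace is a marker of lung capillary endothelium as well as an enzyme of vessel tone. ILMN_2613682 had signals of 468, 283 and 359 in the knockout and 1323, 552, 634 and 768 in the wild type, and was detected on 2 of the 3 knockout arrays. Its levels were 7.60, 6.96 and 7.37 against 9.43, 8.19, 8.23 and 8.46, with wild type 1 well above the rest and no overlap. It fell by 1.26 on the log2 scale (SE 0.31, adjusted p = 0.0326), a value that includes a knockout level not above background. The call was lost without knockout 1 (0.0506), knockout 2 (0.133), knockout 3 (0.0848) or wild type 4 (0.0603), with no background correction (change -0.59, 0.0536), with no filter (0.061) and with the authors' processed values (change -0.45, 0.0924). The second Ace probe, ILMN_2613683, was detected on 1 knockout array, with levels of 7.45, 6.63 and 6.95 against 9.08, 7.62, 7.49 and 7.89. Its change of -1.01 (SE 0.37, adjusted p = 0.119) did not pass; it was -0.65 without wild type 1, -0.42 with no background correction and -0.31 with the authors' processed values. With 2 of the 3 knockout arrays not above background, the size of this difference is not measured.

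Agtr1a, the angiotensin II receptor of vascular smooth muscle and pericytes, had levels of 9.36, 8.90 and 8.86 in the knockout and 10.24, 9.55, 9.60 and 9.80 in the wild type. The genotypes did not overlap, by 0.19 at the closest. The change was -0.75 (SE 0.21, 95% interval -1.23 to -0.27, adjusted p = 0.0592) and did not pass. It passed in 5 of the 15 alternatives, among them median scaling (-0.96, 0.0462) and a variance trend with robust fitting (-0.75, 0.0266), and with the authors' processed values it was -0.45 (0.0609). The probe of its close paralog Agtr1b was detected on 0 arrays.

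Ptgis, which makes prostacyclin, was the member with no visible difference. Its levels were 13.65, 13.78 and 14.00 in the knockout and 14.02, 13.90, 13.79 and 13.74 in the wild type, and the genotypes overlapped throughout. The change was -0.05 (SE 0.16, adjusted p = 0.864), with a 95% interval of -0.41 to 0.31. The difference between this change and those of the other genes was not tested.

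Among arrays of 1 genotype, the members shared part of their order. By the brightest probe, wild type 1 was the highest wild-type array for 6 of 9 genes (Nos3, Gucy1a1, Ednrb, Ace, Agtr1a and Ptgis), and knockout 1 was the highest knockout array for 6 of 9 (Gucy1b1, Gucy1a1, Edn1, Ednrb, Ace and Agtr1a). Ece1 had another order, with wild type 4 and knockout 3 highest. Ace varied most in the wild type, over 1.24 on the log2 scale, and Ptgis least, over 0.28.

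The genes most like 4 of the members across the 7 arrays were found by Pearson's r over 8536 other genes, which describes 7 arrays that share the genotype difference. Closest to Ednrb were Cntn1 (r = 0.9943), Ptprb (0.9908), an endothelial phosphatase, and Cmpk2 (0.9906), and 106 genes had an r above 0.95. Cntn1 fell by 2.29, Ptprb by 1.35 and Cmpk2 by 0.81 on the log2 scale (adjusted p = 0.00142, 0.00825 and 0.0178). Closest to Gucy1b1 were Heph (0.9805), Ccn5 (0.9791) and Aplnr (0.9781), with 46 genes above 0.95. Nos3 ran most closely with Nomo1 (0.9967), Dnaaf1 (0.9931) and Card10 (0.983), of which 0 passed the test of genotype. Edn1 had Pkp2 (0.9806), Tmed2 (0.9792) and Apoc1 (0.979) nearest, and of these Apoc1 was higher in the knockout, by 1.26 (adjusted p = 0.0199).

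Of 104 other genes of vessel tone in 6 lists, 90 had a probe and 53 were tested, by 1 probe each. Of the 53, 7 were lower in the knockout (13.2%, beside 5.11% of all tested genes), 2 were higher (3.77%, beside 3.68%) and 44 did not pass, with a median change of -0.31 against 0.01 over all tested genes. The count lower was 4 without knockout 1, 2 without knockout 2, 4 with no filter and between 2 and 7 when any 1 array was left out.

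In the list of nitric oxide, cyclic GMP and natriuretic peptide genes, 2 of 17 tested genes were lower and 0 higher in limma (1 higher at an unadjusted p under 0.05). The median change was -0.31. Prkg2, a cyclic GMP-dependent protein kinase, had levels of 9.32, 8.99 and 8.98 in the knockout and 10.47, 10.04, 10.18 and 10.41 in the wild type. It fell by 1.18 on the log2 scale (SE 0.18, adjusted p = 0.0055), and the call held in all 15 alternatives, with a smaller change of -0.76 with the authors' processed values. Npr3, the clearance receptor for natriuretic peptides, fell by 0.94 (SE 0.23, adjusted p = 0.0329), and lost its call without knockout 1 (0.088), knockout 2 (0.142) or wild type 2 (0.0709); with the authors' processed values its change was -0.50. The kinase of vascular muscle, Prkg1, had a change of -0.29 (adjusted p = 0.433), and Cav1, the caveolar protein that binds Nos3, one of -0.42 (adjusted p = 0.138). Pde5a, which breaks down cyclic GMP in lung vessels, was detected on 1 array, and Nos1, Nos2 and Npr1 on 0.

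The other endothelin genes tested, Ece2 and Mme, did not pass in limma (1 was higher at an unadjusted p under 0.05), with changes of 0.80 (adjusted p = 0.0597) for Ece2 and -0.37 for Mme, and Edn3 was detected on 0 arrays. Of 5 tested renin and angiotensin genes 1 was lower: Cma1, mast cell chymase, at -0.95 (SE 0.25, adjusted p = 0.0449). Cma1 was detected on 0 knockout arrays and has no fold because its bound reached the wild-type level. Its second probe, ILMN_1225727, gave -0.33 (adjusted p = 0.471) with overlap, and the first gave -0.18 with the authors' processed values; the call was lost in 11 of the 15 alternatives, with adjusted p up to 0.174, among them all left-out arrays but knockout 3. Agt was detected on 0 arrays.

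Among 8 tested prostanoid genes, 2 were lower and 1 higher. Slco2a1, the carrier that takes prostaglandins into lung endothelium, had levels of 12.36, 12.44 and 12.34 in the knockout and 13.73, 13.09, 13.10 and 13.07 in the wild type. It fell by 0.87 (SE 0.19, adjusted p = 0.0251), and lost its call without knockout 1 (0.066), knockout 2 (0.0876) or knockout 3 (0.0823). Tbxas1, the thromboxane synthase of platelets and macrophages, had raw signals that overlapped and averaged 624 in the knockout and 635 in the wild type. In normalised level it rose by 0.91 (SE 0.17, adjusted p = 0.0136), with 0.0676 without knockout 2, 0.05 without knockout 3 and 0.0662 under median scaling, and its second probe gave 0.54 and did not pass. As for Edn1, this direction rests on scaling the arrays to each other, and the change was 0.50 with no background correction and 0.40 with the authors' processed values. The thromboxane receptor Tbxa2r was lower by 1 probe (-0.60, adjusted p = 0.0396) and not past by the other (-0.33); the call was lost in 11 of the 15 alternatives, with adjusted p up to 0.147, and the change was -0.26 with the authors' processed values. The prostacyclin receptor Ptgir did not pass (-0.16, adjusted p = 0.71). Both Ptgs2 probes were detected on 0 arrays, and Ptgs1 had no named probe.

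Among 10 tested genes of other vasoactive peptides and receptors, 2 were lower and 1 higher. A receptor and 1 of its partner proteins went opposite ways. Calcrl, the receptor for adrenomedullin and calcitonin gene-related peptide, had levels of 7.39, 6.24 and 6.74 in the knockout and 9.05, 8.05, 8.49 and 8.75 in the wild type. It was lower in the knockout (fitted change -1.79, SE 0.30, adjusted p = 0.0084). Since 2 of the 3 knockout levels were not above background, the size of this fall is not measured, and the change was -0.75 with no background correction and -0.55 with the authors' processed values. Ramp1, the partner that makes Calcrl a receptor for calcitonin gene-related peptide, had raw signals of 4008, 2526 and 2140 in the knockout and 1774, 1914, 2067 and 1775 in the wild type, with no overlap. In normalised level it rose by 1.34 (SE 0.20, adjusted p = 0.00554). The calls of Calcrl and Ramp1 held in all 15 alternatives, and the Ramp1 change lay between 1.15 and 1.47. The other partner proteins in the list did not pass. Ramp2 had a change of -0.43 (adjusted p = 0.149) and Ramp3, by its brightest probe, one of -0.04 (adjusted p = 0.926). Ramp2 and Ramp3 are named after their values were seen. Aplnr, the apelin receptor, fell by 0.93 (SE 0.16, adjusted p = 0.00896; 0.0537 without knockout 2). In the list of smooth muscle tone, 0 of 11 tested genes passed in limma (4 were lower at an unadjusted p under 0.05), with a median change of -0.41, and the count was 1 without knockout 3, wild type 1 or wild type 3 and up to 2 under other settings. Of Mylk, the kinase that starts smooth muscle contraction, the brightest probe did not pass (-0.82, adjusted p = 0.0615), while the second probe, ILMN_2662602, was lower (-0.76, SE 0.15, adjusted p = 0.0142); this gene is named after its values were seen. Rgs5 of pericytes had a change of 0.40 (adjusted p = 0.291).

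**Figure D4:**
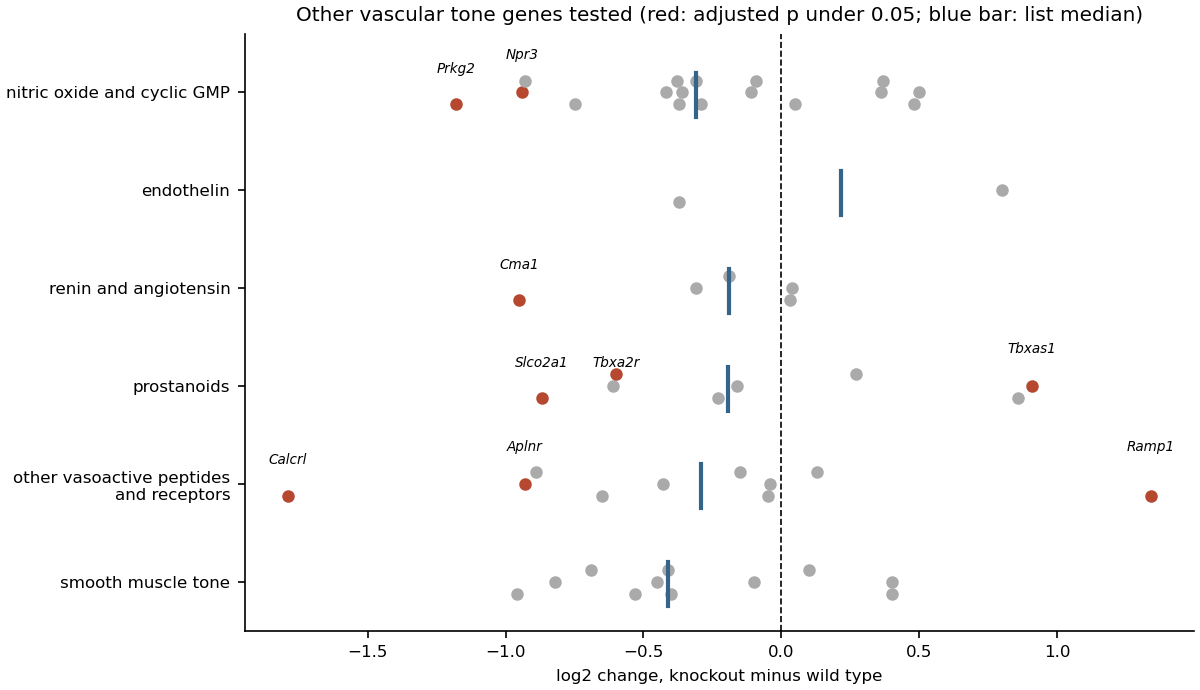
Log2 change, knockout minus wild type (horizontal axis), of each tested gene in the 6 lists of other vessel tone genes (vertical axis, 1 row per list), with genes past an adjusted p of 0.05 in red and named, the others in grey, and a blue bar at the median of the list. Most points lie between -1 and 0.5, with Ramp1 at 1.34 farthest to the right; Calcrl, farthest to the left, was above background on 1 of 3 knockout arrays, so that its place depends on levels near the floor.

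Markers of endothelium, vascular muscle and pericytes, in which these genes are known to be active, also differed between the genotypes. In bulk lung RNA, fewer cells of a type and less RNA per cell cannot be told apart. The marker counts here and below stand beside 5.11% of all tested genes called lower and 3.68% called higher. Of 11 tested endothelial markers among 14 listed, 8 were lower and 0 higher, with a median change of -1.18, and their summed level was 62402 to 67355 on knockout and 101268 to 132939 on wild-type arrays. Kdr was detected on 1 array and Erg on 0. Of 10 tested smooth muscle and pericyte markers, 3 were lower, with a median of -0.74 and sums of 41291 to 49822 against 57554 to 71405. Every such sum, here and below, leans on its brightest probes. How often sums of other gene lists separate the genotypes was not counted. The muscle sum is mostly Acta2, whose brightest probe did not pass (mean levels 15.19 and 15.68, adjusted p = 0.0918 in limma). Another Acta2 probe, ILMN_2710354, was lower (-0.59, adjusted p = 0.048). Its probes ILMN_2923445 (-0.52, adjusted p = 0.0749) and ILMN_2710353 (-0.5, adjusted p = 0.0765) did not pass. Of 7 tested fibroblast markers, 3 were lower, with a median of -0.66 and sums of 19985 to 24562 against 30627 to 37869. Their part in the lower levels of the vessel tone genes was not tested.

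The endothelial markers had changes from -1.58 to -0.37 (median -1.18), and the smooth muscle and pericyte markers from -1.37 to -0.13 (median -0.74). By the brightest probe, Gucy1b1 (-1.26), Ace (-1.26), Ednrb (-1.19), Ece1 (-1.19), Gucy1a1 (-1.05), Agtr1a (-0.75) and Nos3 (-0.71) lay within both ranges. Edn1 (0.60) and Ptgis (-0.05) lay outside both. The difference between each of these genes and the markers was not tested. The Ace change includes a knockout level not above background. With the authors' processed values Gucy1b1, Ace and Nos3 changed by -0.68, -0.45 and -0.29. Marker changes with those values are not given here. Alveolar epithelial markers had 1 of 8 higher and a median of 0.40, with sums of 254490 to 264729 against 206608 to 229641. Of 2 tested aerocyte markers 1 was lower, with sums of 6653 to 8480 against 8630 to 14643. Red cell markers, which move with blood left in the lung, had sums of 1852 to 6971 against 7874 to 26757, with 1 of 2 lower. Of 5 heart muscle markers 0 passed in limma (2 were lower at an unadjusted p under 0.05), with sums of 29105 to 36691 against 38283 to 50964, and of 3 leukocyte markers 1 was lower, with sums that overlapped.

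**Figure D5:**
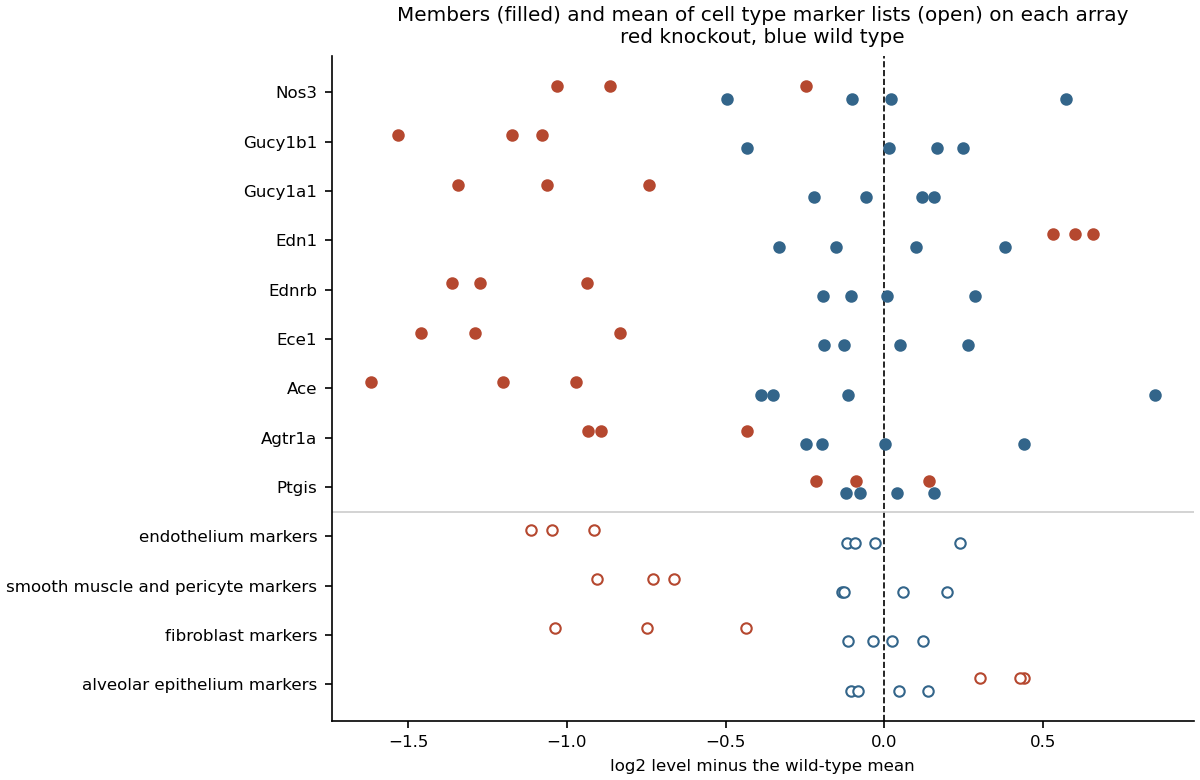
Normalised log2 level on each array minus the wild-type mean (horizontal axis), for the 9 genes by their brightest probe (filled points) and for the mean over the tested markers of 4 cell types (open points), with knockout in red above wild type in blue on each row. Knockout points lie left of the wild-type points for Gucy1b1, Gucy1a1, Ednrb, Ece1, Ace, Agtr1a and the endothelial, muscle and fibroblast markers, right of them for Edn1 and the alveolar epithelial markers, and among them for Nos3 and Ptgis.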

How the data were processed

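Per the file headers, one deposited table gives a linear mean bead intensity and a detection p-value for every probe and array; the software that made it is not given in the sources used here. The other holds values that the authors processed to a log2-like scale; the submitters' processing notes name lumi 1.14.0 and R 2.11.1, and these values served as an alternative. Its exact transformation is not known here.

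Signals went through neqc of limma 3.58.1 in R 4.3.3, that is, normexp background correction (negative controls inferred from the detection p-values, offset 16), quantile normalisation and log2. The platform annotation gave 1 gene symbol for 23978 probes and none for 1719 of the 25697. The test covered the 11902 probes detected (detection p under 0.01) on 3 arrays or more, with lmFit and eBayes and Benjamini-Hochberg adjustment over all of them at 0.05; 3074 had an unadjusted p under 0.05, and 584 were called lower and 472 higher. All adjusted p-values are from this limma fit unless another setting is named. A gene with several probes is given by each, or by the brightest tested one where so stated. Exact permutation tests took the absolute difference of means over all 35 splits. Precision is limited by the number of arrays.

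The members, lists and tests were chosen with earlier results of these data known. Named were all members, Cldn18, up to 4 called genes of each list with the largest change, preset genes whether called or not, and the 3 genes most like each of 4 members. The fit was tested on simulated data. Alternatives were the background correction, offset, scaling, filter, variance model, a replicate block and leaving out each array. Figures were drawn with Python 3.11.15.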

Additional observations from a re-analysis of the deposited data

Results flagged for a closer look

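In the difference between the levels of Edn1 and Ece1, wild type 3 stood at -0.99, far from the other wild-type arrays at -1.76, -1.77 and -1.73. Without it, the shift between the genotypes lay within the range of 1.62 to 2.00 given above. For Slco2a1, wild type 1 had a level of 13.73, apart from 13.09, 13.10 and 13.07 on the others. These are 2 of 28 groups of 4 arrays examined for a lone array, and chance flags about 1 in 20.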

How the results depend on the processing

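No called result turned its direction in up to 15 alternatives; of those not called, the Gucy1a1 minus Gucy1b1 shift ranged from -0.36 to 0.30 and the Ptgis change from -0.15 to 0.03. The pair shifts have no value of their own under the other filters and variance model, which leave levels as they are. The count of 10 lower member probes was 5 with the authors' processed values, 6 with no filter, 5 with the replicate block and between 3 and 8 when 1 array was left out; fewer arrays also lower the power of the fit. The count of 0 higher became 1, for Edn1, with no background correction, with the authors' processed values and with robust fitting to a variance trend. Over all probes, 584 lower calls became 223 with the replicate block and 192 to 557 with 1 array left out, and 472 higher calls became 217 under median scaling, 172 with the block and 135 to 488 with 1 array left out. Median scaling moved the median change of all probes from 0.018 to -0.14, and the share of higher calls from 44.7% to 23.0%. For the other vessel tone genes, 7 lower became 4 with no filter, 3 with the block and 2 to 7 with 1 array left out, and 2 higher became 1 under median scaling and 1 to 3 with 1 array left out. The cause of these shifts was not tested.

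The labels do not say that the replicate numbers pair the arrays. Deviations from the genotype mean had correlations of -0.0217, -0.00444 and -0.142 between same-numbered arrays, and 0 of 3 knockout arrays correlated best with their own number. With so few arrays these values cannot exclude a pairing. The block, fitted on the 6 arrays numbered 1 to 3, gave 5 lower member probes, against 8 on the same 6 arrays with no block, and is given as a check only. Signal over background limits Ace and the second Ece1 probe, which were not detected on every knockout array.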
